A study of Mus musculus with 11 samples.

Results

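Mouse eggs at metaphase II (MII), the stage of the second meiosis at which they wait for fertilisation, were compared between females whose oocytes grew without Daxx and control females, gene by gene, in 6 RNA-seq libraries. They were taken by their labelled genotype and stage, 3 knockout and 3 control of the 11 libraries in the series, and all 24421 genes of the count table were examined, of which 14235 had enough reads to be tested. Knockout females were Daxx f/f; Zp3-cre: both copies of the floxed allele Daxxtm2Led were present together with the transgene Tg(Zp3-cre)93Knw. Control females were Daxx f/f without the transgene, so the floxed alleles were shared by both groups and the transgene came with the deletion. All females were on a mixed C57BL/6J and 129/Sv background, were over 8 weeks old, and received 5 IU of pregnant mare serum gonadotropin followed by 5 IU of human chorionic gonadotropin (hCG). Oocytes were taken 20 hours after hCG, and each library was 1 pool of 50 oocytes from 2 to 3 females. The remaining libraries were 2-cell embryos, obtained by fertilising oocytes of both genotypes in vitro with sperm of the JF1 strain and taken 33 hours later, 3 from control mothers and 2 from knockout mothers, and they are used below only to look up levels.

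DAXX is a chaperone that places the histone variant H3.3 into chromatin, in partnership with the remodeller ATRX, at telomeres, pericentric repeats and silenced elements. Outside chromatin it is also known as an adaptor in stress and death receptor signalling. The Zp3 promoter is active only in growing oocytes, so Cre acts after the oocyte has left the resting pool. A fully grown oocyte stops transcribing before it resumes meiosis, and RNA in an MII egg is therefore what was made during growth and not yet degraded.

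The libraries held 32582998 to 39798586 counted reads, so that 3 reads corresponded to 0.0754 to 0.0921 CPM, and between 17160 and 17575 genes had a read. CPM is a gene's count scaled to a common library size: its share of all counted reads in that library, in parts per 1000000. Between libraries of 1 genotype the SD of the log2 difference over genes was 0.319 to 0.437, and between genotypes 0.367 to 0.461, so the ranges overlapped. The closest pair was control 1 with control 2, and control 3 differed from control 1 (SD 0.437) more than any other library did from one of its own group. The 10 oocyte markers, among them the zona pellucida genes and the secreted factors Gdf9 and Bmp15, summed to 14406 to 14748 CPM in controls and 14635 to 15130 CPM in knockouts. None of these 10 markers was called by edgeR, DESeq2 or limma-voom, and 1 had an unadjusted p under 0.05 (Gdf9, log2 change 0.10). Markers of granulosa and cumulus cells, the cells that surround the oocyte, summed to 28.3 to 32.0 CPM in controls and 34.0 to 38.2 CPM in knockouts, which did not overlap. In such pooled material, fewer cells of a type and less RNA per cell cannot be told apart. None of the 6 tested granulosa and cumulus markers was called by edgeR (2 higher at unadjusted p under 0.05; 1 called higher by DESeq2, 0 by limma-voom). Ptx3 was at 0 and Inha and Foxl2 at or below 0.0614 CPM in every oocyte library. Cyp11a1 had a log2 change of 0.44 and Ptgs2 of 1.25, both at an adjusted p of 0.13. Blood and immune markers summed to 0.157 to 0.368 CPM, with Hba-a1, Hbb-bs and Cd52 at 0, and theca and stroma markers to 1.95 to 3.54 CPM, with Col1a2 and Col3a1 at 0. Endothelial markers summed to 87.6 to 99.7 CPM with ranges that overlapped, and Cdh5, which defines that cell type, was at 0 in every oocyte library. Of the 4 tested endothelial markers edgeR called 0 (1 higher at unadjusted p under 0.05, smallest adjusted p 0.0797), DESeq2 called 1 higher and limma-voom 0. The part of other cells in the results below was not tested.

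Daxx itself stood at 97.2, 94.2 and 86.2 CPM in the control libraries and at 8.2, 8.4 and 7.83 CPM in the knockout libraries. Every knockout library was far below every control, as the labels give it. The fitted log2 change was -3.52 ± 0.07 (SE), with an adjusted p of 1.2e-11, and the knockout mean was 8.8% of the control mean. The gene spans chr17:33909404-33915590 (GRCm38). The exons that the floxed allele removes (not given in the sources used here) decide whether the remaining reads lie in kept exons, which was not tested.

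Rises outnumbered falls among the called genes, and the rises of at least 2-fold were mainly in genes at low levels. Of the 14235 genes tested, 83 passed an adjusted p of 0.05 (0.583%): 64 were higher (0.45% of all tested) and 19 lower (0.133%) in knockout oocytes. At an unadjusted p under 0.05 (10.3% of genes), 807 were higher and 657 lower. DESeq2 called 1.6% and limma-voom 0.4% of the tested genes. The 64 rises had a median log2 change of 0.75 and a median control level of 10.3 CPM, against 14.7 CPM over all tested genes. The 19 falls had a median log2 change of -0.35 and a median control level of 78.3 CPM. Scaled by gene length, the medians of control levels were 1.98 CPM per kb for rises, 17.2 for falls and 5.12 over all tested genes. At least 2-fold rises numbered 25, 24 of them with a mean under 20 CPM in the higher group, and at least 2-fold falls numbered 2 (Daxx and Foxp2). Of all tested genes, 1916 had such a mean under 1 CPM, 2882 from 1 to 5 and 2906 from 5 to 20. A further 3996 had it from 20 to 100 CPM and 2535 over 100. The median SE of the log2 change was 0.384 under 1 CPM and 0.0463 over 100 CPM, so genes at low levels needed larger changes to be called. All 83 called genes had groups that did not overlap, as did 15.7% of all tested genes.

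**Figure D1:**
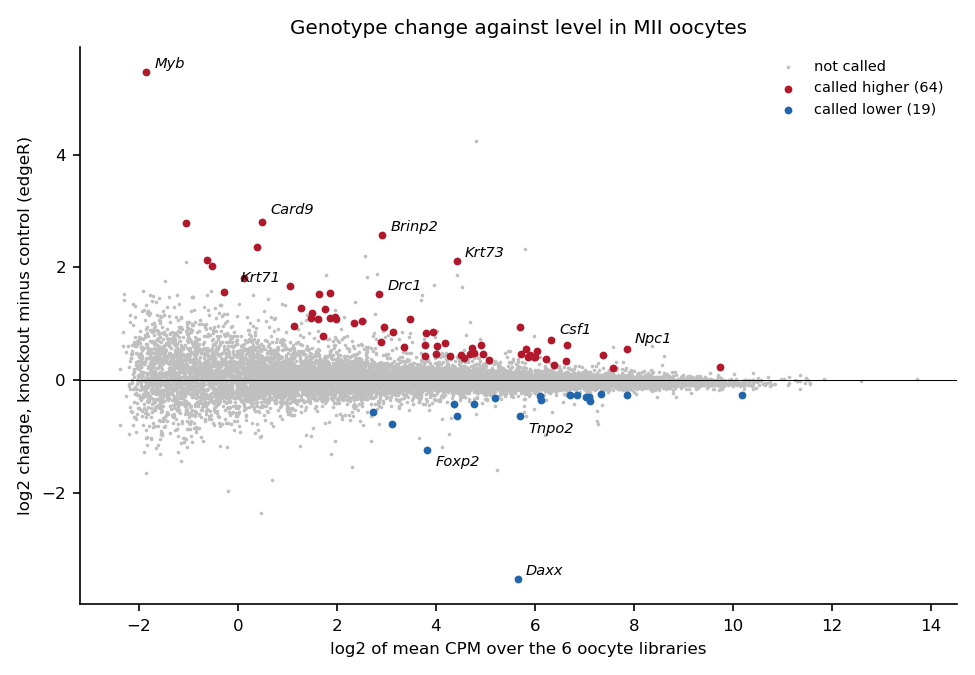
Change of each tested gene in knockout against control MII oocytes (y axis, log2) by its mean level over the 6 oocyte libraries (x axis, log2 CPM). Grey points are the 14235 tested genes, red the 64 called higher and blue the 19 called lower; the 25 rises of at least 2-fold lie mostly at the left, at low levels.

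How many genes passed varied with the libraries used. Without control 1 there were 19 rises and 4 falls, and without control 2 there were 16 and 5. Without control 3, the control that stood apart from the other controls, there were 117 rises and 40 falls. Leaving out knockout 1, 2 or 3 gave 41 and 12, 51 and 20, or 34 and 15. Of the 82 called genes besides Daxx, 16 kept their call whichever library was left out, 66 lost it at least once, and 0 changed direction in any of 16 alternatives. The direction could hardly change, as all called genes had groups that did not overlap and the same oocyte libraries were refitted. Of the 82 genes, 9 passed in every alternative that could test them, among them Brinp2, Drc1, Stox2, Prm2, Krt71, Card9, Foxp2 and Tnpo2. These calls depended least on the library or setting used. Foxp2 among them lies in a stretch of chromosome 6 with many shifted genes that is described below.

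**Figure D2:**
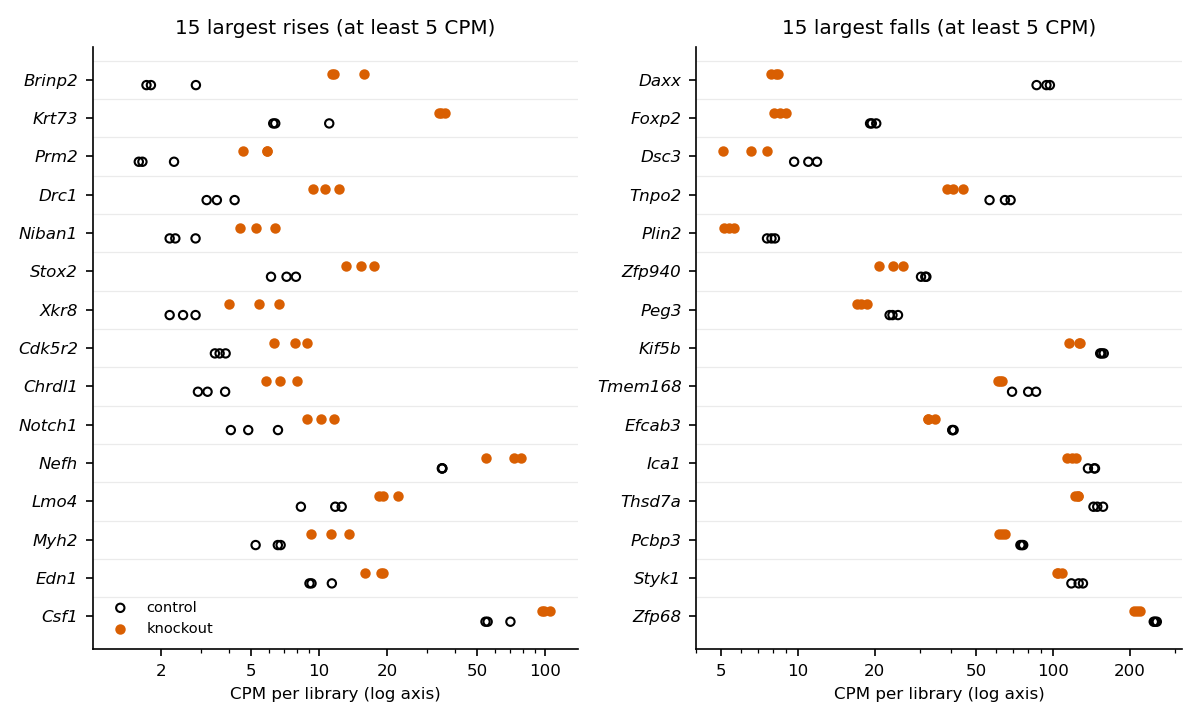
Level of the 15 largest rises (left) and the 15 largest falls (right) among called genes (x axis, CPM, log scale). Only genes whose higher group averaged 5 CPM or more are shown, with predicted genes left out. Each circle is 1 library, open for control and filled for knockout; within each gene the 3 knockout libraries lie apart from the 3 controls.

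Keratins were the list with the highest share of calls. Keratins are the intermediate filament proteins of epithelia, made in pairs of a type I and a type II chain; type II genes sit side by side on chromosome 15 and type I genes on chromosome 11. The list, chosen with earlier results of these data known, held 31 keratins of the table, and 12 of them were tested. Of these 12, 4 rose (33.3%, against 0.45% of all tested genes called higher) and 0 fell. The median log2 change was 0.42 over the 12 and 0.00 over all tested genes. The list is a part of the family: besides the 4 called, the table held 50 keratins that were not called. Krt71, Krt73 and Krt8 are type II chains: the first 2 belong to the inner root sheath of the hair follicle, and Krt8 is the early chain of simple epithelia and trophectoderm. Krt12 is a type I chain of the corneal epithelium. RefSeq promoters of these 4 genes (GRCm38.p6) are shown here because each holds the 6 letters TATAAA close to its annotated start. Each stretch runs from 130 bases before the start to 20 after it, 5′ to 3′ on the minus strand, with TATAAA in capitals. They lie at chr15:101743078-101743227 (Krt71), chr15:101802341-101802490 (Krt73), chr15:102004323-102004472 (Krt8) and chr11:99422240-99422389 (Krt12).
Krt71: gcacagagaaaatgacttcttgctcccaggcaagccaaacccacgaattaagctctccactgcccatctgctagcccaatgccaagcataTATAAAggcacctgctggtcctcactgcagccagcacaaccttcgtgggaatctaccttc
Krt73: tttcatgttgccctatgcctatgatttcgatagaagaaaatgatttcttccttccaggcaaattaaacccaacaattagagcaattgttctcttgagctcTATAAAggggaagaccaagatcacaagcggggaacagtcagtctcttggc
Krt8: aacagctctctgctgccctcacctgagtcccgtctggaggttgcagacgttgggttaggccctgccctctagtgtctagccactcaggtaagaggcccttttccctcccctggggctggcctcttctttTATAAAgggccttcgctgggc
Krt12: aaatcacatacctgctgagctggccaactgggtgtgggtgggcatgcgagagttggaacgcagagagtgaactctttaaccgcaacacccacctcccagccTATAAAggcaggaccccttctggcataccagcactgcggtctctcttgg

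The first base of the motif lies 40 bases before the annotated start in Krt71, 30 in Krt73, 29 in Krt12 and 1 in Krt8. For Krt12 this is the start of the RefSeq promoter, which lies inside the RefSeq gene (chr11:99415664-99422593) and not at its end. TATAAA was searched in the whole RefSeq window of 300 bases, on the gene strand, and the match is a description of the letters only. It was found in 4 of the 4 called keratins, in 13 of the 32 other keratins with a window (40.6%), in 3 of the 41 other called rises with a window (7.32%) and in 4.92% of the windows of all tested genes. On either strand (TATAAA or TTTATA) the shares were 46.9% of the other keratins, 9.76% of the other rises and 7.75% of all tested genes.

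Krt73 was the largest keratin change, with 6.41, 6.28 and 11.1 CPM in controls and 34.5, 34 and 35.9 CPM in knockouts. Knockout libraries were close to each other and control 3 was the highest control. The log2 change was 2.11 ± 0.24 (adjusted p = 0.039). That call held without control 3 (adjusted p = 8.9e-10) and was lost without each of the other libraries (adjusted p 0.097 to 0.16). Krt71 rose from 0.675, 1.16 and 1.09 CPM to 2.51, 3.83 and 3.2 CPM, a log2 change of 1.67 ± 0.24 (adjusted p = 0.0096). It was higher in each knockout library than in any control and kept its call in all alternatives that tested it. Krt8 rose from 1.41, 1.51 and 1.51 CPM to 2.85, 3.4 and 2.49 CPM (log2 0.96 ± 0.18, adjusted p = 0.041). Krt12 rose from 18.8, 18.7 and 20.3 CPM to 25, 28.2 and 26.2 CPM (log2 0.44 ± 0.08, adjusted p = 0.028). The call of Krt8 was lost without each library except control 3 (adjusted p 0.058 to 0.18), and that of Krt12 without control 1, control 2, knockout 2 or knockout 3 (0.084 to 0.16). Krt76, another type II chain in the same cluster, had a log2 change of 1.13 at an adjusted p of 0.056, and Krt72 of 1.12 at 0.2, in both with groups that did not overlap. Krt84, in the same cluster, was at 36, 33.1 and 33 CPM in controls and 36.1, 37.1 and 33.6 CPM in knockouts, and Krt18, the usual partner of Krt8, had no read in any oocyte library. Krt88, also in this cluster, had a log2 change of -0.26 (adjusted p = 0.58). Summed over the 31 keratins of the list, controls held 77.5, 72.6 and 83.2 CPM and knockouts 122, 127 and 121 CPM. The number of keratins of the list called higher ranged from 1 (without control 1, control 2, knockout 2 or knockout 3) to 6 (without control 3), and 0 were called lower in any setting.

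The largest rise among called genes with a mean of 5 CPM or more in the higher group was Brinp2. Brinp2 encodes a neural protein induced by bone morphogenetic protein and retinoic acid. It stood at 1.81, 1.73 and 2.86 CPM in controls and at 15.8, 11.4 and 11.6 CPM in knockouts. All 3 knockout libraries lay well above the controls, and the log2 change was 2.57 ± 0.21 (adjusted p = 0.0009). Insm1, a zinc finger factor of neuroendocrine differentiation, rose from 51.2, 45.9 and 53.4 CPM to 68.5, 69.4 and 69.9 CPM (log2 0.45 ± 0.06, adjusted p = 0.01). The Insm1 call was lost without control 1 or control 2 (adjusted p = 0.062 and 0.055), while Brinp2 kept its call whichever library was left out.

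Nefh, Cdk5r2, Bsn and Lrrc4 are described next; they were taken from the calls and form no list of their own. Nefh, the heavy neurofilament chain, was at 35.1, 35 and 34.9 CPM in controls and at 77.8, 72.5 and 54.9 CPM in knockouts. Controls were almost identical and knockout 3 was the lowest of its group (log2 0.95 ± 0.11, adjusted p = 0.01). It was the 1 call among 8 tested intermediate filament genes other than keratins (12.5%, against 0.583% of all tested genes), and it was lost without any 1 control (adjusted p 0.072 to 0.098). Tubb3, the beta tubulin of neurons, rose by a log2 of 0.22 ± 0.04 from 178, 180 and 170 CPM to 200, 213 and 209 CPM (adjusted p = 0.039). Cdk5r2, an activator of the kinase CDK5 in neurons, rose from 3.87, 3.47 and 3.64 CPM to 8.83, 6.3 and 7.81 CPM (log2 1.05 ± 0.15, adjusted p = 0.0081). Bsn, a scaffold of the presynaptic active zone, rose by a log2 of 0.62 ± 0.11 (adjusted p = 0.021), and Lrrc4, a synaptic adhesion protein, by 0.41 ± 0.07 (adjusted p = 0.019). The calls of Tubb3 and Bsn were each lost without 5 of the libraries, that of Lrrc4 without 4 and that of Cdk5r2 without control 2 (adjusted p = 0.074). Over the list of 21 tested neuronal genes, 2 rose (Brinp2 and Tubb3) and 1 fell (Foxp2), which is 14.3% against 0.583% of all tested genes. The median log2 change was 0.13. This list was chosen with earlier results of these data known, so its share of calls is a description and not a test.

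Htr5b, Htr3a, Kcna5 and Kcna1 are 4 further rises taken from the calls, with no list behind them. Htr5b, a serotonin receptor, went from 1.75, 1.48 and 1.54 CPM to 5.05, 4.41 and 4.42 CPM (log2 1.53 ± 0.16, adjusted p = 0.0009). Every knockout value was more than any control value, and the call held whichever library was left out. Htr3a, the serotonin-gated ion channel, had 30 reads in the controls together and 128 in the knockouts, a ratio of library-scaled reads of 4.16 (95% counting interval 2.78 to 6.42). Its log2 change was 2.03 ± 0.38 (adjusted p = 0.037), and the call was lost without 5 of the libraries. The potassium channel genes Kcna5 and Kcna1, which start 104 kb apart on chromosome 6, rose by a log2 of 2.14 ± 0.33 and 1.10 ± 0.19 (adjusted p = 0.015 and 0.023). Kcna5 rested on 26 control reads and 120 knockout reads. Its call was lost without 3 of the libraries and that of Kcna1 without 4.

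Among the regulators of transcription called higher were Myb, Sox2, Stox2 and Lmo4. Myb, a factor of blood progenitors, had 1 read in the 3 controls together and 27, 25 and 10 reads in the knockouts. The ratio of library-scaled reads was 60.5, with a 95% counting interval of 10.5 to 2427. It was thus nearly absent from control oocytes and at 0.707, 0.665 and 0.265 CPM in knockouts (adjusted p = 0.015), and its call was lost without control 1 or control 2 (adjusted p = 0.094 and 0.087). Sox2, a core pluripotency factor, rose from 2.18, 1.61 and 2.11 CPM to 4.56, 3.85 and 4.16 CPM (log2 1.08 ± 0.17, adjusted p = 0.016). The doubling was similar in the 3 knockout pools, and the call was lost without control 1, control 2, knockout 1 or knockout 3 (adjusted p 0.057 to 0.097). Stox2, a winged-helix protein, rose from 6.14, 7.19 and 7.91 CPM to 13.1, 15.3 and 17.5 CPM (log2 1.09 ± 0.13, adjusted p = 0.0033) and kept its call in all alternatives. Lmo4, a LIM-only partner of transcription factors, rose from 11.8, 8.32 and 12.6 CPM to 22.3, 18.4 and 19.1 CPM (log2 0.85 ± 0.15, adjusted p = 0.049), close to the threshold, and lost its call without 4 of the libraries. Smaller rises were called for Bcor, a co-repressor of the Polycomb system (log2 0.60), for Myocd, the co-activator of smooth muscle genes (0.68), and for Cebpb, a leucine zipper factor (0.47). The calls of Myocd and Cebpb were each lost without 5 of the libraries and that of Bcor without 3. Cebpb lies at chr2:167688915-167690432, in a stretch with many shifted genes that is described below. Of 23 tested pluripotency and first-lineage genes, 2 rose (Sox2 and Krt8) and 0 fell (8.7%, against 0.583% of all tested genes). Without control 1, control 2, knockout 1 or knockout 3, 0 of the list were called. Pluripotency and lineage genes next by p, such as Klf4 and Gata4, had log2 changes of 0.23 and 0.22 at adjusted p of 0.33 and 0.43.

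Among secreted factors, Csf1 and Edn1 rose. Csf1, the growth factor of macrophages, was at 54.4, 55.6 and 70.1 CPM in controls and 105, 98.5 and 96.4 CPM in knockouts. Control 3 was again the control nearest to the knockouts (log2 0.71 ± 0.10, adjusted p = 0.021). Edn1, which encodes the vasoconstrictor peptide endothelin 1, rose from 9.27, 11.4 and 9.08 CPM to 18.8, 16 and 19.2 CPM (log2 0.84 ± 0.11, adjusted p = 0.0052). The Edn1 call was kept whichever library was left out, while that of Csf1 was lost without each library except control 3 (adjusted p 0.065 to 0.13). Of 16 tested growth factors and cytokines these 2 rose and 0 fell (12.5%, against 0.583% of all tested genes), and the median log2 change was 0.04. Chrdl1, a secreted antagonist of bone morphogenetic proteins, rose from 2.92, 3.22 and 3.85 CPM to 7.96, 5.82 and 6.72 CPM (log2 1.02 ± 0.16, adjusted p = 0.015), a call lost without control 1, control 2 or knockout 3 (0.055 to 0.099). Notch1, a receptor of cell-contact signalling, rose from 4.08, 4.87 and 6.59 CPM to 11.6, 10.2 and 8.84 CPM (log2 0.95 ± 0.17, adjusted p = 0.037). It was the 1 call among 20 tested Notch pathway genes (5%, against 0.583%), and leaving out any library except control 3 took the adjusted p to between 0.057 and 0.21. Rbpj, the DNA-binding partner of the Notch intracellular domain, had a log2 change of -0.26 at an adjusted p of 0.15.

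Among spermatid markers and axoneme genes the rises were Prm2 and Drc1, and among myosin heavy chains Myh2 and Myh14. Prm2, a protamine that packs sperm DNA, rose from 1.6, 1.66 and 2.29 CPM to 5.87, 5.9 and 4.61 CPM (log2 1.54 ± 0.18, adjusted p = 0.0028). Among the other spermatid markers, Tnp1, Tnp2 and Smcp were at 0 in every oocyte library, and Prm1 was at 0 in controls and at most 0.106 CPM in knockouts. Summed over 10 spermatid markers, controls held 6.59 to 6.94 CPM and knockouts 10.1 to 12.5 CPM, and 1 of the 5 tested markers was called higher (20%, against 0.583% of all tested genes called). The median log2 change of these 5 was 0.43. At an unadjusted p under 0.05, 2 of them, Prm2 included, were higher and 0 lower. Drc1, a subunit of the dynein regulatory complex of motile cilia, rose from 3.19, 3.54 and 4.24 CPM to 9.43, 12.3 and 10.6 CPM (log2 1.53 ± 0.14, adjusted p = 0.00061). Its list of 19 tested axoneme genes was divided, with 1 rise, 1 fall (Efcab3, log2 -0.31, adjusted p = 0.05 after rounding), 10.5% called and a median log2 change of -0.10. Myh2, a fast skeletal muscle myosin, rose from 5.25, 6.58 and 6.77 CPM to 13.6, 11.3 and 9.21 CPM (log2 0.85 ± 0.15, adjusted p = 0.027). Myh14, a non-muscle myosin, rose by a log2 of 0.78 ± 0.15 (adjusted p = 0.039). They were 2 of 9 tested myosin heavy chains (22.2% called). Summed over the list, controls held 552 to 595 CPM and knockouts 502 to 538 CPM, and 3 other members, Myh11, Myh9 and Myh10, had log2 changes of -0.22, -0.17 and -0.15 at adjusted p of 0.15, 0.29 and 0.39. Myh2 lost its call without 4 of the libraries and Myh14 without any 1 library.

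Immune and stress genes gave few calls. Samd9l, an antiviral gene induced by interferon, had 13 reads in controls together and 96 in knockouts, a ratio of library-scaled reads of 7.2 (95% counting interval 4.02 to 14). The log2 change was 2.79 ± 0.46 (adjusted p = 0.019), and the call was lost without control 2, knockout 1 or knockout 3 (adjusted p 0.062 to 0.13). Among 16 tested interferon and sensing genes it was the 1 call (6.25%, against 0.583% of all tested genes), and Bst2, an interferon-induced factor that tethers virus particles, followed at a log2 of 0.76 and an adjusted p of 0.051. Card9, a signalling adaptor of myeloid cells, rose from 0.246, 0.226 and 0.547 CPM to 3.22, 2.37 and 1.75 CPM (log2 2.80 ± 0.35, adjusted p = 0.0046). Blood and immune markers were near 0 in both genotypes, with 0 of them tested, and the part of other cells in this rise was not tested. Bcl2l11, which encodes the pro-apoptotic protein BIM, rose from 41.4, 42.2 and 49.4 CPM to 63, 61.6 and 60.6 CPM (log2 0.46 ± 0.07, adjusted p = 0.016). Map3k5, a stress kinase that DAXX protein is known to bind, fell from 174, 175 and 178 CPM to 144, 152 and 154 CPM (log2 -0.24 ± 0.04, adjusted p = 0.032). These were the 2 calls among 23 tested apoptosis genes (8.7%). Bcl2l11 lost its call without control 1, control 2 or knockout 3 (adjusted p 0.056 to 0.11), and Map3k5 without 4 of the libraries. Of 27 tested p53 and DNA damage genes, 0 were called by edgeR (2 higher and 2 lower at unadjusted p under 0.05; 1 lower by DESeq2, 0 by limma-voom). Further rises with a mean of at least 5 CPM were Niban1, a stress-responsive gene (log2 1.12), and Xkr8, a scramblase that exposes phosphatidylserine in dying cells (log2 1.08), with adjusted p of 0.015 and 0.027. Niban1 lost its call without control 2 or knockout 3, and Xkr8 without 4 of the libraries.

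Falls were fewer and smaller, and mostly in genes with higher levels. Foxp2, a forkhead factor known for its role in vocal learning circuits, fell from 19.5, 19.2 and 20.3 CPM to 8.54, 9.01 and 8.05 CPM. Values within each genotype were nearly equal, and the log2 change of -1.23 ± 0.09 (adjusted p = 3.7e-05) was the largest fall among called genes after Daxx. Tnpo2, a transportin that carries proteins into the nucleus, fell from 64.8, 56.4 and 68.2 CPM to 38.4, 40.6 and 44.2 CPM (log2 -0.64 ± 0.08, adjusted p = 0.0052). It was the 1 call among 18 tested nuclear import receptors (5.56%, against 0.583% of all tested genes), and Kpna7, the importin alpha of oocytes, had a log2 change of -0.30 at an adjusted p of 0.19. Kif5b, a heavy chain of conventional kinesin, fell from 158, 155 and 153 CPM to 126, 127 and 115 CPM (log2 -0.36 ± 0.05, adjusted p = 0.0046). It was the 1 call among 22 tested kinesins (4.55%). Foxp2, Tnpo2 and Kif5b kept their calls whichever library was left out. Foxp2 lies near the start of chromosome 6, where the part of strain origin and of the transgene site was not tested, as described below.

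Other falls were closer to the threshold. Dsc3, a desmosomal cadherin, fell from 11, 11.9 and 9.68 CPM to 6.55, 7.6 and 5.11 CPM (log2 -0.78 ± 0.14, adjusted p = 0.027), the 1 call among 16 tested cadherin, desmosome and gap junction genes (6.25%, against 0.583% of all tested genes). Plin2, which coats lipid droplets, fell from 7.58, 8.14 and 7.89 CPM to 5.13, 5.4 and 5.64 CPM (log2 -0.57 ± 0.11, adjusted p = 0.047). Both had groups that did not overlap, but Plin2 lost its call without any 1 library (adjusted p 0.058 to 0.22) and Dsc3 without 4 of them (0.078 to 0.16). Peg3, a zinc finger gene transcribed from the paternal allele in most tissues, fell from 24.7, 22.9 and 23.5 CPM to 17.7, 17 and 18.7 CPM (log2 -0.43 ± 0.08, adjusted p = 0.03). Its call was lost without each library except control 3 (0.051 to 0.17). Peg3 was the 1 call among 36 tested imprinted genes (2.78%, against 0.583% of all tested genes). Grb10 and Snrpn had log2 changes of -0.25 and -0.36 at adjusted p of 0.085 and 0.1. Of the 36 imprinted genes, 7 were higher and 4 lower at an unadjusted p under 0.05, which 10.3% of all tested genes reached. Some of the list lie on proximal chromosome 6, and 31 were tested with that region left out. Zfp940 and Zfp68, zinc finger genes, Pcbp3, an RNA-binding protein, and Styk1, a kinase, fell by log2 changes of -0.43, -0.26, -0.28 and -0.26. Myo5b, a myosin that moves recycling vesicles, went from 1255, 1234 and 1272 CPM to 1004, 1104 and 1084 CPM (log2 -0.26 ± 0.05, adjusted p = 0.027).

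In lists of oocyte and chromatin genes few or none were called; with 0.583% of all tested genes called, 0 calls in lists of this size do not set them apart from other genes. In the list of 26 tested genes for H3.3 with its chaperones and a set of DAXX partners, which does not include Map3k5, Daxx was the 1 call, and 0 genes were higher and 4 lower at unadjusted p under 0.05. Summed over this list, Daxx included, controls held 5614 to 5733 CPM and knockouts 5414 to 5529 CPM. Atrx was at 998, 869 and 915 CPM in controls and 834, 798 and 886 CPM in knockouts (log2 -0.16, adjusted p = 0.35), with groups that overlapped. Ubn2, a subunit of the HIRA complex that also deposits H3.3, had a log2 change of -0.13 at an adjusted p of 0.28. Among 29 tested heterochromatin genes edgeR, DESeq2 and limma-voom called 0, and 0 had an unadjusted p under 0.05. Among 19 other histone chaperones and variants all 3 tools called 0 (1 higher and 1 lower at unadjusted p under 0.05). The same tools called 0 of 19 DNA methylation genes (2 higher and 0 lower at unadjusted p under 0.05), 0 of 20 piRNA and small RNA genes (0 and 1), 0 of 23 meiotic arrest and spindle genes (1 and 0) and 0 of 13 oocyte transcription factors (0 and 1). They also called 0 of 20 subcortical maternal complex and maternal-effect genes (1 and 0) and 0 of 32 TGF beta and Wnt genes (2 and 4). Of 11 zona and oocyte-secreted genes edgeR and limma-voom called 0 and DESeq2 1 (2 and 1 at unadjusted p under 0.05). That gene list includes Astl, the egg protease that cuts the zona, at 146, 129 and 135 CPM in controls and 184, 152 and 178 CPM in knockouts (edgeR adjusted p = 0.16). Of 11 tested genes of the transient 2-cell programme, 0 were called by any of the 3 tools (1 higher and 1 lower at unadjusted p under 0.05), and Zscan4d had a log2 change of 0.67 at an adjusted p of 0.37.

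**Figure D3:**
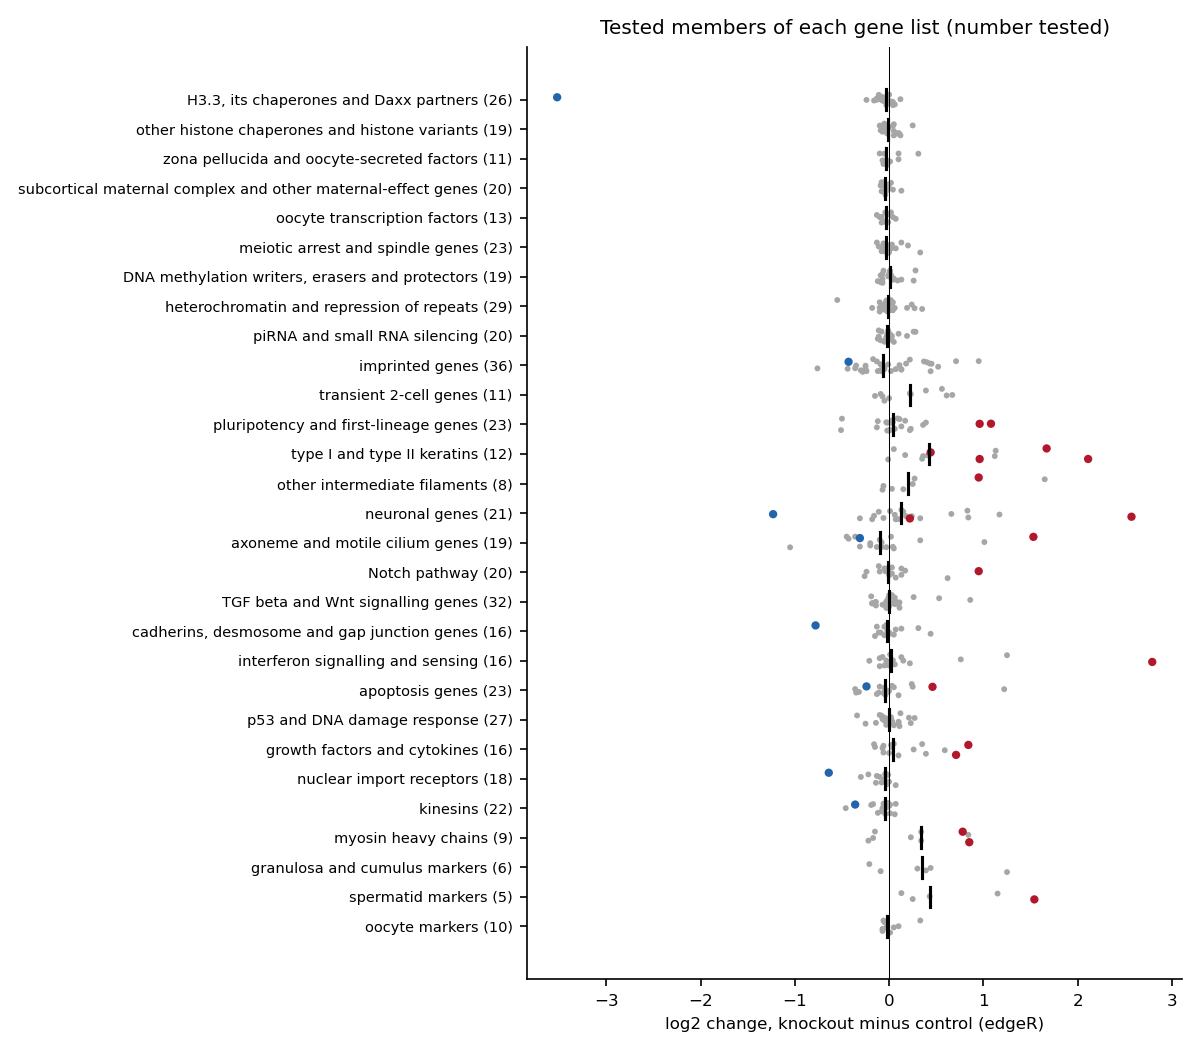
Log2 change, knockout against control oocytes, of every tested gene in each list with at least 5 tested genes (x axis; 1 row per list, number tested in parentheses, black bar at the median). Red and blue points passed the test, grey points did not; keratins hold 4 of the 83 calls, and several oocyte and chromatin lists hold none.

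Called genes were unevenly spread over the genome. On the first 30 Mb of chromosome 6, 8 of 89 tested genes were called (8.99%, against 0.583% of all and 0.804% of the rest of that chromosome). They lay between chr6:3372257 and chr6:28831747. The 4 rises there were Samd9l, Rpa3, Tfec and Lrrc4, and the 4 falls were Ica1, Thsd7a, Tmem168 and Foxp2. Rpa3, the small subunit of replication protein A, rose by a log2 of 0.39 ± 0.08 (adjusted p = 0.049), and Tfec, a basic helix-loop-helix factor of the MITF family, by 1.19 ± 0.20 (adjusted p = 0.019). Ica1, a protein of secretory vesicles, went from 145, 146 and 137 CPM to 113, 123 and 119 CPM (log2 -0.29 ± 0.05, adjusted p = 0.015). Thsd7a, a membrane protein with thrombospondin repeats, went from 157, 149 and 144 CPM to 122, 125 and 125 CPM (log2 -0.29 ± 0.04, adjusted p = 0.013). Tmem168, a membrane protein, fell by a log2 of 0.35 ± 0.07 (adjusted p = 0.044). Without control 1 or control 2, 7 of these calls other than Foxp2 lost significance at least once, with adjusted p of up to 0.24. The strain origin of each pool's chromosomes and the site of the transgene, both not given in the sources used here, have a part in these differences that was not tested.

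Shifts that mostly stayed under the threshold were densest at the end of chromosome 18. In 232 windows of 10 Mb with at least 20 tested genes, the median share of genes with an unadjusted p under 0.05 was 9.63% (10.3% over all tested genes). The 5 highest windows, singled out after their values were seen, were chromosome 18 at 80 to 90 Mb (50.0%), 70 to 80 Mb (37.8%) and 60 to 70 Mb (33.3%), chromosome 2 at 160 to 170 Mb (33.0%) and chromosome 6 at 10 to 20 Mb (31.8%). Together they held 247 tested genes and 10 of the 83 calls (4.05% called, against 0.583% of all tested genes). As the windows were picked for their small p-values, a raised share of calls in them follows in part from the choice. From 60 to 90 Mb of chromosome 18, 51 of 134 tested genes had an unadjusted p under 0.05, 29 higher and 22 lower. Of the 134, 4 were called, where 0.583% of all tested genes were. Ppargc1b, a co-activator of mitochondrial genes, and 4921531P14Rik rose, and Myo5b and 4930503L19Rik fell. Ppargc1b was at 23.4, 21.8 and 18.3 CPM in controls and 35.2, 31.2 and 29.7 CPM in knockouts (log2 0.58 ± 0.09, adjusted p = 0.018). Dctn4, a dynactin subunit in the same stretch, was at 209, 209 and 162 CPM in controls and 86.5, 151 and 109 CPM in knockouts, and did not pass the test (adjusted p = 0.43).

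The same libraries were intermediate for many genes of that stretch. Among the 51 genes, control 3 was the control nearest to the knockouts in 37 (72.5%), against 39.9% of the genes with an unadjusted p under 0.05 outside these windows. Knockout 2 was the knockout nearest to the controls in 38 (74.5%, against 32.6%), and knockout 1 the farthest in 36 (70.6%, against 39.6%). The strain origin of these stretches in each pool was not tested here either, so their shifts and calls, Ppargc1b and Myo5b among them, cannot be told apart from differences between pools in strain segments. In the window of chromosome 2 the order differed, with knockout 3 nearest to the controls in 66.7% of 30 genes and knockout 1 farthest in 70%. The 2 calls in that window, Cebpb and Slc2a10, have the same limit. Without the genes of the 5 windows, 58 rises and 13 falls were called.

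**Figure D4:**
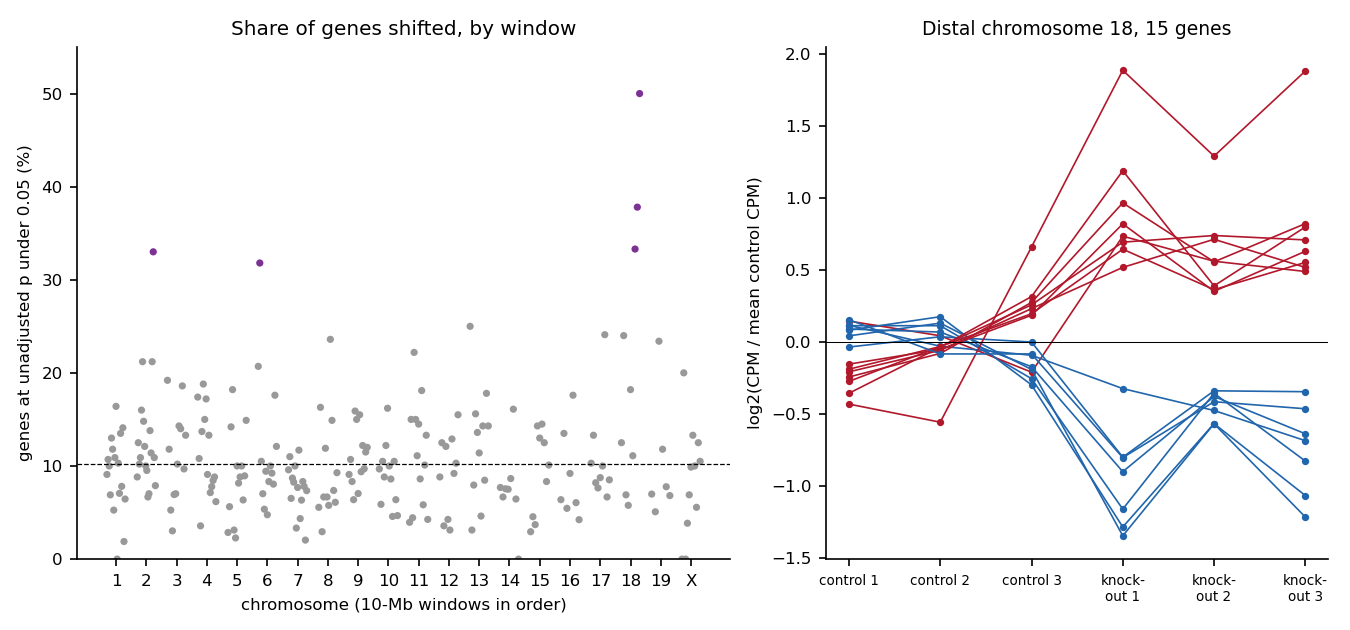
Left, share of tested genes with an unadjusted p under 0.05 in each 10-Mb window (y axis, %) in order along the chromosomes, with the 5 highest windows in purple and the share over all tested genes dashed. Right, log2 of CPM over the control mean in each library for 15 genes of distal chromosome 18 (unadjusted p under 0.05, log2 change of at least 0.5 either way, each control at least 1 CPM; 8 higher in red, 7 lower in blue; lines join the libraries of 1 gene and carry no order); control 3 and knockout 2 often lie between the other libraries.

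Some calls were neighbours. Of the 82 called genes with a position, 15 (18.3%) started within 1000000 bases of another called gene, as 10% of all tested genes did of a called gene. The pairs that rose together were Cdk5r2 with Nhej1, Card9 with Notch1, Kcna5 with Kcna1, Ammecr1 with Chrdl1, and the keratins Krt71, Krt73 and Krt8. Opposite directions were seen for Plin2 (lower) and Acer2 (higher), 247 kb apart, and for Rpa3 (higher) and Ica1 (lower), 375 kb apart. Notch1 and Card9 start 106 kb apart on chromosome 2, and of the 6 tested genes between them 4 had log2 changes above 0 and 2 below.

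Most oocyte rises were also seen at higher levels in the separate libraries of 2-cell embryos from knockout mothers. Of the 64 genes, 42 (65.6%) had both maternal knockout embryo libraries above all 3 control embryo libraries, as had 12.1% of all tested genes, and 0 had both below. The mean was higher for 59 (92.2%, against 56.8% of all tested genes). Krt73 was at 1.33, 2.82 and 1.39 CPM in control embryos and 9.13 and 11.5 CPM in maternal knockout embryos. Brinp2 was at 0, 0.522 and 0.304 CPM in control embryos and 1.82 and 3.04 CPM in maternal knockout embryos. Samd9l went from 0.0556, 0.0522 and 0 CPM to 0.83 and 1.16 CPM. Exceptions were Edn1, at 0.26 to 0.731 CPM in control and 0.474 and 0.579 CPM in maternal knockout embryos, and Drc1, at 8.9 to 18.8 and 11.7 and 16.4 CPM, whose groups overlapped. Of the 18 falls besides Daxx, 3 (16.7%, against 6.65%) lay below in both maternal knockout embryo libraries: Foxp2, Dsc3 and Zfp940. Foxp2 was at 7.84, 7.21 and 6.03 CPM in control and 3.48 and 4.49 CPM in maternal knockout embryos. With 2 libraries in 1 group these are levels and not a test, and whether the RNA was carried over from the egg or made in the embryo cannot be told apart.

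**Figure D5:**
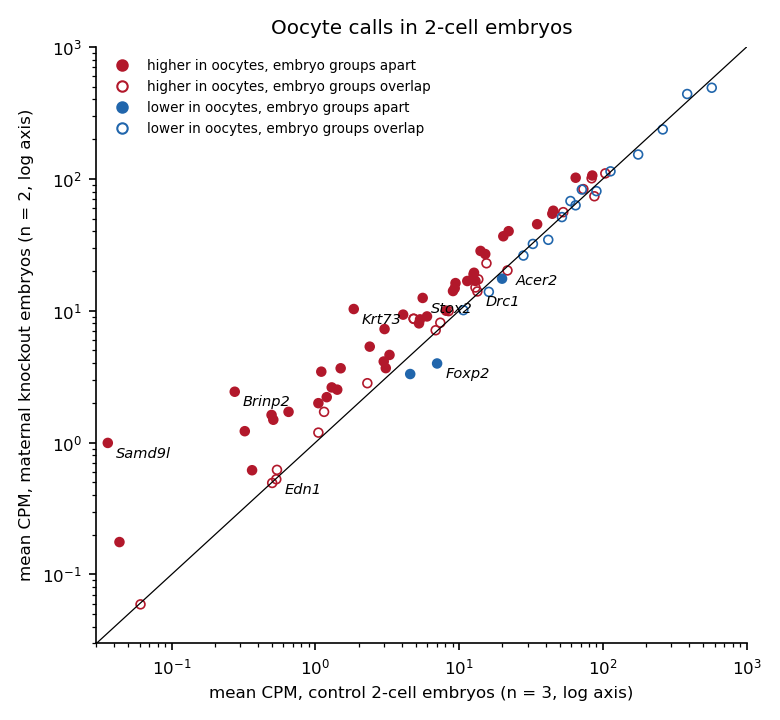
Mean level in maternal knockout 2-cell embryos (y axis, CPM, log scale, 2 libraries) against control embryos (x axis, CPM, log scale, 3 libraries) for genes called in oocytes, red for rises and blue for falls, with Daxx left out. Filled points have embryo groups that do not overlap, which holds for 42 of 64 rises and 3 of 18 falls; the line marks equal levels, and genes at 0 in a group cannot be drawn.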

How the data were processed

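RNA of each oocyte pool was reverse transcribed, amplified and sequenced (NuGEN SoLo kit, per the labels' protocols). The authors deposited whole-number read counts per gene; per the submitters' processing notes, STAR 2.5.0a and SAMtools were used with genome GRCm38 (mm10). The deposited table also has a width per gene, taken here as its length for CPM per kb. With the counting program, strand use and duplicate handling not given in the sources used here, overlapping genes, antisense genes and near-identical copies have uncertain values. Symbols and coordinates came from the RefSeq table of GRCm38.p6, in which 24387 of 24421 identifiers matched, and promoters from the RefSeq promoter table of that build, which held 45 of the 64 rises and 11 of the 19 falls.

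Counts were tested with edgeR 4.0.16 in R 4.3.3: filterByExpr (count minimum 10, total minimum 15), TMM, robust quasi-likelihood F test over the 6 oocyte libraries, Benjamini-Hochberg adjustment over 14235 genes, threshold 0.05. SEs were derived from the F statistic (absolute log2 change over the root of F). Read ratios have exact 95% intervals from counts scaled by library totals, and these and the levels worth 3 reads cover counting error only. Alternatives used DESeq2 1.42.0, limma 3.58.1 (voom), other filters and scalings, and each library left out. No pair of libraries agreed within sampling noise (chi-square per degree of freedom 5.05 to 14.7 within groups). Nothing says that pools came from separate litters or days, so p-values measure the spread between pools.

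The members and the gene lists were chosen with earlier results of these data known, so the shares of calls in the lists are descriptions and not tests. Genes were named by this rule: Daxx, the 15 largest rises and falls among called genes whose higher group averaged 5 CPM or more (predicted genes left out), called genes of proximal chromosome 6, called list members, up to 4 members of each list by p, and cell type markers. Other called genes, Krt84, Krt88, Krt18, Dctn4 and the genes among the closing observations were chosen after their values were seen. Some called genes are not reported here.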

Additional observations from a re-analysis of the deposited data

How the results depend on the processing

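Against 64 rises, 19 falls and 27 calls of at least 2-fold, DESeq2 called 155 higher and 73 lower, no filter on low counts gave 130 and 53, edgeR without robust estimation 37 and 7, a minimum mean of 5 CPM 34 and 11 (8 of at least 2-fold, from 9328 genes tested), and all libraries in 1 fit 18 and 4 (17 of at least 2-fold). Limma-voom called 12 lower, and 11 remained lower without proximal chromosome 6. Leaving out 1 library gave 16 to 117 higher, 4 to 40 lower and 12 to 42 of at least 2-fold. RLE size factors gave 57 and 18, and leaving out the 5 windows, which was chosen after seeing the data, 58 and 13. The cause of these differences was not tested, except that fewer samples or genes enter where libraries or genes are left out. Daxx passed in all 16 alternatives. In any of them 0 of the called genes changed direction, which was hardly possible for groups that did not overlap.

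Residuals of control and knockout libraries of the same number correlated at -0.16, 0.15 and 0.05, and control 1 correlated best with knockout 2 (0.23) and control 3 with knockout 1 (0.24). These values do not show a pairing by number, and residuals centred on 3 libraries per group could not exclude one. With the number as a replicate block, 78 genes were higher and 32 lower. Precision was lower for rare transcripts: among genes with a mean under 1 CPM the median SE of the log2 change was 0.384, against 0.0463 over 100 CPM.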

Other observations

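Some large differences were uneven between libraries of 1 genotype and were not called. They were picked after their values were seen and are given as levels. Mt1, a metallothionein that binds zinc, was at 0.368, 0.377 and 7.39 CPM in controls and 54.6, 57.3 and 49.3 CPM in knockouts, so the groups did not overlap, with control 3 the highest control. The log2 change was 4.25 ± 1.12 and the adjusted p 0.35. Its neighbour Mt2 was at 0.101 to 0.318 CPM in all 6 oocyte libraries. In embryos Mt1 was at 183, 169 and 270 CPM in controls and 207 and 205 CPM in the maternal knockout group, which overlapped. Heatr3, a ribosome assembly factor on the same chromosome 8, was at 26.1, 19.7 and 26.9 CPM in controls and 9.11, 8.77 and 14.5 CPM in knockouts (adjusted p = 0.19).

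Cttnbp2, a cortactin-binding protein of neurons on proximal chromosome 6, was at 52.9, 49.2 and 67.4 CPM in controls and 33.8, 12.1 and 11 CPM in knockouts (log2 -1.59, adjusted p = 0.46), with knockout 1 apart from the other knockouts. Septin3, a septin of neurons, was at 8.56, 7.86 and 38.8 CPM in controls and 192, 10.7 and 77.9 CPM in knockouts, with groups that overlapped. Bfsp1, a filament protein of the eye lens, was at 0, 0.101 and 32.7 CPM in controls and 17.9, 0.0266 and 86.9 CPM in knockouts. It was thus present or nearly absent within both genotypes. Rnf165, on distal chromosome 18, was at 5.4, 4.95 and 11.5 CPM in controls and 26.9, 17.8 and 26.8 CPM in knockouts (adjusted p = 0.33). Control 3 was the control nearest to the knockouts for Mt1, Septin3 and Rnf165 but not for Cttnbp2.

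CG dinucleotides were counted in the promoters of called genes. In the RefSeq windows of 300 bases the median was 8.5 CG in the 16 matched rises of at least 2-fold, 21 in all 45 matched rises, 13 in 11 matched falls and 20 over the 11203 matched tested genes. Promoters with at least 10 CG were 50% of the larger rises and 77% of those of all tested genes. These are descriptions of the matched genes, with no test.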
